A study of Mus musculus with 6 samples.

Results

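*Resf1*, which encodes retroelement silencing factor 1, and 9 genes of the H3K9 methylation machinery that silences retroelements were followed in mouse liver RNAseq. The members are *Resf1* (listed under its older symbol 2810474O19Rik), *Setdb1*, *Trim28*, *Atf7ip*, *Cbx1*, *Cbx3*, *Cbx5*, *Dnmt1*, *Uhrf1* and *Suv39h1*, and the symbols of all 10 were found among the 16123 genes of the deposited comparison of KO with WT. *Resf1* was selected on its ratio in this same comparison, so its difference is given as a description and carries no test, and the other 9 genes were chosen by their known role beside it. The mice were males of 2 months that then ate a purified chow diet for 4 weeks and were fasted for 16 h before the livers were taken. The label of the WT mice gives the strain as C57BL/6Rj. KO mice were *Txndc5* knockouts made on C57BL/6J with CRISPR and a high fidelity Cas9, are labelled C57BL/6JRj-Txndc5<em2Mdnp>/Ciba, carried a deletion that spans exon 3 of *Txndc5*, and descended from 1 founder, so that they represent 1 line. According to the paper, the WT and KO males came from crosses of heterozygous mice. There were 3 libraries of each genotype, each from pooled liver RNA of 3 mice, and no library comes from a single animal.

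H3K9 trimethylation is the mark of condensed, silent chromatin, and in mammals it holds many endogenous retroviruses and other retroelements in check. KRAB zinc finger proteins find the retroelement, TRIM28 (KAP1) binds to them and brings SETDB1, the methyltransferase that writes the mark, while ATF7IP stabilises SETDB1 and keeps it in the nucleus and RESF1 is known as a partner of SETDB1 in this silencing. The heterochromatin proteins CBX1, CBX3 and CBX5 (HP1 beta, gamma and alpha) read the mark, SUV39H1 writes it at pericentromeric heterochromatin, and UHRF1 recruits the maintenance DNA methyltransferase DNMT1 to newly replicated DNA.

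*Resf1* (NCBI Gene 67246) spans bases 149309414 to 149335663 of chromosome 6 on the plus strand (GRCm38, GENCODE M21), its longest transcript has 5 exons, and no other annotated gene overlaps it. The RefSeq promoter windows, which run from 250 bases before to 50 bases after an annotated start in GRCm38.p6, covered all 10 members with 16 windows. Those of *Resf1*, of its partner *Setdb1* and of *Cbx3*, the other member with a lower value in KO, are given 5′ to 3′, with CCAAT (or its complement ATTGG) and GGGCGG (or CCGCCC) in capitals. *Cbx3* has 2 windows in that table, of which the first is shown.
Resf1, chr6:149309164-149309463, plus strand: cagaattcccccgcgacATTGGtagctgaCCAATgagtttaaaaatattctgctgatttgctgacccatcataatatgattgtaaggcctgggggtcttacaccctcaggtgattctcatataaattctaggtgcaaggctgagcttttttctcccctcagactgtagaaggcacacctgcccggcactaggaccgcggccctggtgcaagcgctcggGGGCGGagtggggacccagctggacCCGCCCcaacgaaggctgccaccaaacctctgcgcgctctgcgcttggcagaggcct
Setdb1, chr3:95357153-95357452, minus strand: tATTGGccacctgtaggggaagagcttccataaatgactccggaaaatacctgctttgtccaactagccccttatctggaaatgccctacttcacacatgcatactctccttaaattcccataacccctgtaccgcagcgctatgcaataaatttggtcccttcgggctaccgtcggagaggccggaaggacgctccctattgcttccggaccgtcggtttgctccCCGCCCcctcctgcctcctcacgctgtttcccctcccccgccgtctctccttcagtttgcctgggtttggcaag
Cbx3, chr6:51470366-51470665, plus strand: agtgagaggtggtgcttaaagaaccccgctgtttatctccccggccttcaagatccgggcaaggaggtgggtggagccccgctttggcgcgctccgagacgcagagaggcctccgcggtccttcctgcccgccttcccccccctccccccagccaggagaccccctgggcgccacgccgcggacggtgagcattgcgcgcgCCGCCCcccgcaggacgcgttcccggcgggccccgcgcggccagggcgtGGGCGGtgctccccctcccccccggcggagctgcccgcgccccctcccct
The *Resf1* window held both motifs, each at 2 places, and 13 CpG dinucleotides. The *Setdb1* window held each motif once and 15 CpG, and the *Cbx3* window held GGGCGG at 2 places, no CCAAT, and 34 CpG. Over the 32851 windows of the table, 37.4% held CCAAT and 35.7% held GGGCGG on either strand, and the median was 7 CpG. Of the 16 windows of the members, 9 held CCAAT and 13 held GGGCGG, and their CpG ranged from 2 to 37. These matches of letters describe the windows and were not tested as binding sites.

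The 6 libraries held between 44040160 and 46050030 clean reads, and 91.6% to 93.7% of them mapped. The deposited comparison gives 1 expression value per genotype, on the scale of reads divided by a size factor of each library. The size factors ran from 0.818 to 1.31, a wider span than that of the clean reads. They are therefore not a measure of depth alone, and what else they carry was not tested. Because reads are whole numbers, the reads behind the lower values could be worked out library by library. The 2 deposited values of a gene are not the plain means of these reads and can lie closer together. For *Uhrf1* the values were 1.33 in WT and 1.26 in KO, and the means of normalized reads 1.47 and 1.13. Differences of the deposited values can therefore be smaller than those of the reads, also in the counts and medians of the lists below. For *Resf1* and *Txndc5* the ratio of the deposited values equals, after rounding, the ratio that the paper reports from its own comparison. The recovered libraries are tied to a genotype but not to a numbered pool, and they are called WT a, b and c and KO a, b and c by falling size factor (1.22, 0.879 and 0.818 in WT, 1.31, 1.04 and 0.886 in KO). Between 242199 and 506011 reads per library were recovered. The WT value of *Txndc5* was 2697 and the KO value 90.8, 29.7-fold lower, which fits the labels. The labels do not say whether the pools share animals or batches, so the spread between libraries may be partly technical. Libraries WT a and KO a stood apart from the others of their genotype, and the values that touch the members are given beside them.

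*Resf1* had the largest log2 difference between genotypes among the 10 members. Its deposited value was 95.6 in WT and 33.1 in KO, a difference of −1.50 on the scale of log2(value + 1). WT libraries a, b and c held 254, 40 and 50 reads, or 207, 45.5 and 61.1 normalized reads (reads divided by the size factor). KO libraries a, b and c held 60, 11 and 14 reads, or 45.7, 10.6 and 15.8 normalized reads. Library a was the highest of its genotype in both, and the genotypes met at the edge, with KO a just above WT b. The mean was 105 ± 89.3 (SD, n = 3 libraries) in WT and 24.0 ± 18.9 (SD, n = 3 libraries) in KO, and the difference of the mean log2(normalized reads + 1) was −2.01 with a standard error of 0.70 from limma. The deposited values of *Resf1* lie closer to each other than these means. The highest library, WT a, held 19.5 times the normalized reads of the lowest, KO b. Between libraries of the same letter the ratio was alike, 4.54-fold lower in KO a than in WT a, and 4.04-fold lower in the mean of KO b and c than in the mean of WT b and c. The letters only rank the size factors and do not pair the libraries. In pooled liver RNA, fewer cells that express a gene and less RNA per cell cannot be told apart.

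**Figure D1:**
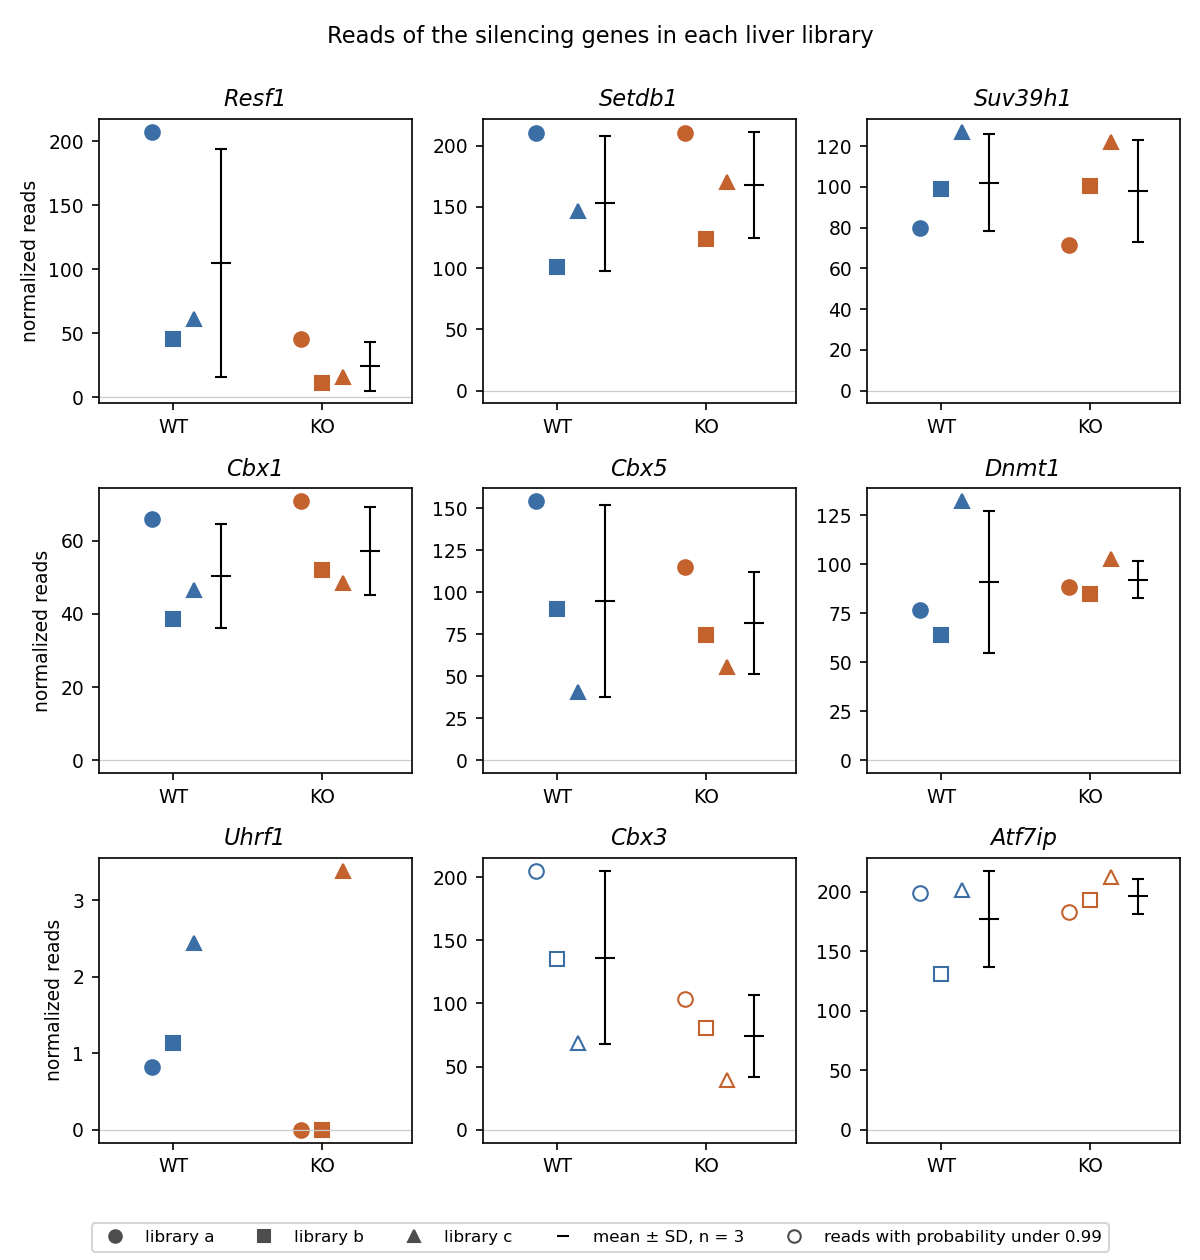
Normalized reads (reads divided by the size factor, linear axis from 0) in the 3 WT and the 3 KO libraries for 9 members, with the mean ± SD of each genotype except for *Uhrf1*, which had 7 reads in all; open symbols mark the most probable reads of genes below the probability limit of 0.99. *Resf1* spans 10.6 to 207 normalized reads with library a on top in both genotypes and KO a just above WT b, and the genotypes of the other members shown overlap as well.

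The writers of H3K9 methylation among the members differed between genotypes by less than their spread. *Setdb1* (NCBI Gene 84505, chromosome 3, 95323525 to 95357202, minus strand) had a deposited value of 154 in WT and 167 in KO. Its normalized reads were 211, 101 and 147 in WT a, b and c and 210.3, 124 and 170.5 in KO a, b and c. The 2 genotypes overlapped over most of their range, with library a highest in both. The log2 difference was 0.17 with a standard error of 0.40. *Cers2* overlaps it on the other strand, and the sources used here do not say whether the reads were counted by strand. *Suv39h1* (NCBI Gene 20937, chromosome X, 8061171 to 8074760) had 80.0, 99.0 and 127 normalized reads in WT a, b and c and 71.6, 100.4 and 122 in KO a, b and c. Here library a was the lowest of its genotype in both, the opposite of *Resf1* and *Setdb1*, and the genotypes overlapped. The log2 difference of *Suv39h1* was −0.07 with a standard error of 0.36.

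The cofactors of SETDB1 were listed at close values in the 2 genotypes. *Trim28* (NCBI Gene 21849, chromosome 7, 12999114 to 13031035), the corepressor that brings SETDB1 to retroelements, had a deposited value of 1378 in WT and 1301 in KO, a log2 difference of −0.08. *Zbtb45* overlaps it on the other strand. *Trim28* is too abundant for its reads to be recovered, and no spread between libraries can be given. *Atf7ip* (NCBI Gene 54343, chromosome 6, 136506167 to 136610862) had 178 in WT and 195 in KO, a log2 difference of 0.13. For *Atf7ip* 191 sets of whole reads were left, and the most probable one, at a probability of 0.976, fell below the limit of 0.99. That set gave 199, 131 and 202 normalized reads in WT a, b and c and 183, 193 and 212 in KO a, b and c. In it WT b was the lowest library and the other 5 lay within 183 to 212, with no excess in library a.

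The 3 HP1 genes differed among themselves. *Cbx3* (HP1 gamma, NCBI Gene 12417, chromosome 6, 51470360 to 51483704) had a deposited value of 131 in WT and 79.6 in KO, a log2 difference of −0.71, the second largest among the members. Its most probable reads, at a probability of 0.981 among 9 sets, gave 205, 135 and 68.5 normalized reads in WT a, b and c and 104, 80.1 and 39.5 in KO a, b and c. The genotypes overlapped, since KO a and KO b were above WT c, and library a was the highest in both. On these reads the mean was 136 ± 68.2 (SD, n = 3 libraries) in WT and 74.4 ± 32.4 (SD, n = 3 libraries) in KO. The annotation names 8 pseudogenes after *Cbx3*, and reads shared with such copies make its level uncertain.

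*Cbx1* (HP1 beta, NCBI Gene 12412, chromosome 11, 96789127 to 96808640) had 66.1, 38.7 and 46.5 normalized reads in WT a, b and c and 70.9, 52.1 and 48.6 in KO a, b and c. The difference was small beside the spread (log2 difference 0.19, standard error 0.36). *Cbx5* (HP1 alpha, NCBI Gene 12419, chromosome 15, 103191544 to 103239816) had 154, 89.9 and 40.4 normalized reads in WT a, b and c and 115, 74.3 and 55.3 in KO a, b and c. The KO libraries lay entirely inside the WT range, and the log2 difference was −0.08 with a standard error of 0.54. Within both genotypes *Cbx5* and *Cbx3* ran from high in library a to low in library c.

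The DNA methylation arm held 1 well expressed and 1 nearly silent gene. *Dnmt1* (NCBI Gene 13433, chromosome 9, 20907209 to 20959888) had 76.8, 63.7 and 132 normalized reads in WT a, b and c and 88.4, 84.96 and 103 in KO a, b and c. The KO libraries lay inside the WT range here too, and the means were 90.8 ± 36.3 (SD, n = 3 libraries) in WT and 92.0 ± 9.44 (SD, n = 3 libraries) in KO. *Uhrf1* (NCBI Gene 18140, chromosome 17, 56303321 to 56323486) had 1, 1 and 2 reads in WT a, b and c and 0, 0 and 3 reads in KO a, b and c. With 7 reads in all, a difference was not detectable at this depth. A count of 0 allows up to 3 reads, which is 2.29 normalized reads in KO a and 2.90 in KO b, for counting error alone. UHRF1 is made mostly in dividing cells, and the 16 proliferation genes summed to 507 in WT and 502 in KO. Of the 8 proliferation genes averaging 10 or more, 0 were under −0.5, 1 was over 0.5 and 4 were below 0, with a median of 0.03. The gene over 0.5 was *Mcm2*, a subunit of the replicative helicase, at 26.9 in WT and 41.7 in KO, followed by *Rrm2*, a subunit of ribonucleotide reductase, at 21.3 and 26.8.

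Per kb of gene model, *Trim28* had the highest deposited value in WT, 423, and *Uhrf1* the lowest, 0.390. *Resf1* stood eighth of the 10 members in WT, at 15.7 per kb, and ninth in KO, at 5.45 per kb, where it passed below *Cbx5* at 9.40 per kb. On the recovered WT reads, *Cbx3* had 73.6 ± 36.9 normalized reads per kb (SD, n = 3 libraries). *Cbx1*, *Atf7ip*, *Setdb1* and *Suv39h1* followed at means of 39.6, 39.0, 32.9 and 32.9 per kb and did not differ beyond their spread. *Dnmt1* at 16.9 ± 6.76, *Resf1* at 17.2 ± 14.7 and *Cbx5* at 10.8 ± 6.49 per kb (SD, n = 3 libraries each) did not differ beyond their spread either.

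**Figure D2:**
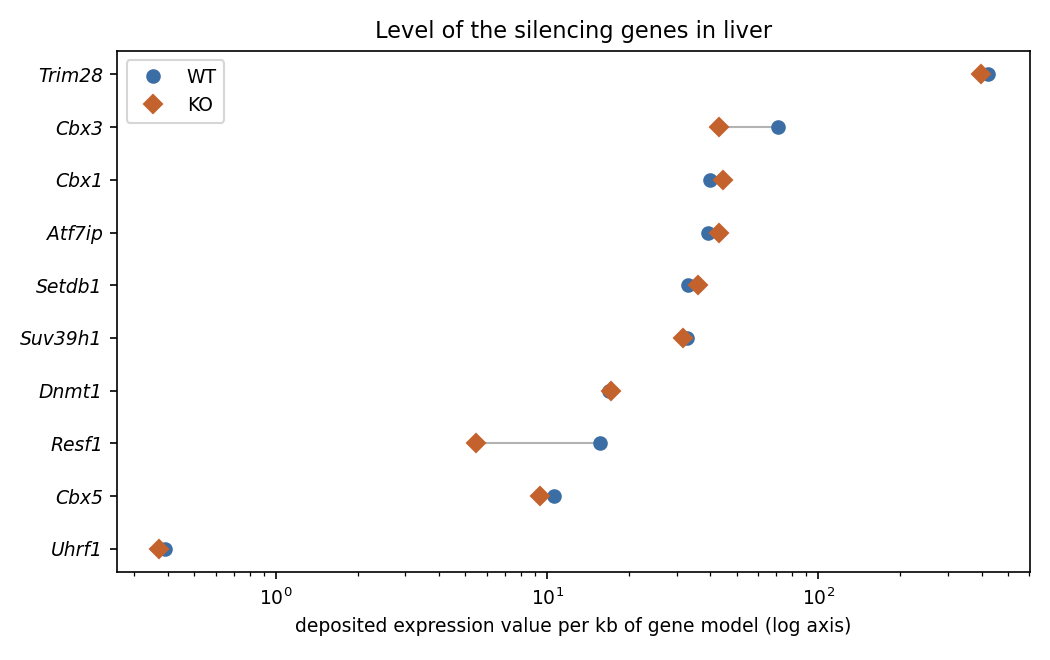
Deposited expression value per kb of gene model (log axis) for the 10 members, 1 value per genotype with no error, circles for WT and diamonds for KO. *Trim28* is highest at 423 in WT and 400 in KO, and the widest gap on this axis belongs to *Resf1*, at 15.7 in WT and 5.45 in KO.

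Over the members, 2 of 10 had a deposited log2 difference under −0.5, namely *Resf1* and *Cbx3*, and 0 of 10 had one over 0.5. Of all 11367 genes whose 2 values averaged 10 or more, 7.61% were under −0.5 and 2.38% over 0.5. The median difference was −0.05 for the 9 members that reach this average and −0.05 for those 11367 genes. *Resf1* is one of the 2 through the way it was chosen. Of the 7 members with accepted reads, 6 entered the limma fit of 5283 genes with a sum of at least 60 normalized reads, and *Uhrf1* fell under that limit. In 0 of the 6 members did the genotypes separate without overlap, where 5.49% of the genes in the fit did so.

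The library of highest size factor moved with several members. Library a was the highest of its genotype in both genotypes for 4 of 6 members in the fit, *Resf1*, *Setdb1*, *Cbx1* and *Cbx5*, where 40% of all genes in the fit did the same. It was the lowest in both for 1 of 6, *Suv39h1*, where the share was 16.1%. The log2 excess of library a over libraries b and c was 1.85 for *Resf1*, 1.09 for *Cbx5*, 0.66 for *Setdb1*, 0.56 for *Cbx1*, −0.17 for *Dnmt1* and −0.55 for *Suv39h1*. Of 5098 genes with a GC content, 221 (4.34%) had a larger excess than *Resf1*.

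The order of that excess among members followed their base composition in part. The longest transcript of *Resf1* has 41.4% GC, that of *Cbx5* 42.6%, of *Cbx1* 44.8%, of *Setdb1* 48.3%, of *Suv39h1* 49.97% and of *Dnmt1* 54.0%. *Cbx3*, at 38.7%, is the member with the lowest GC content and *Trim28*, at 59.6%, the one with the highest. The longest transcript of *Cbx3* has 1 exon and 2926 bases, beside 1851 bases of its gene model. Its GC content may therefore differ from that of the RNA that was counted. In the 1275 genes with the lowest GC content, up to 43.8%, the median excess of library a was 1.14 and the median log2 difference of KO from WT was −0.37. In the 1275 genes with the highest, from 53.5%, these medians were −0.34 and −0.01. Both members with a deposited difference under −0.5, *Resf1* and *Cbx3*, have a GC content under 43.8% in their longest transcript. The part of base composition in their difference was not tested.

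**Figure D3:**
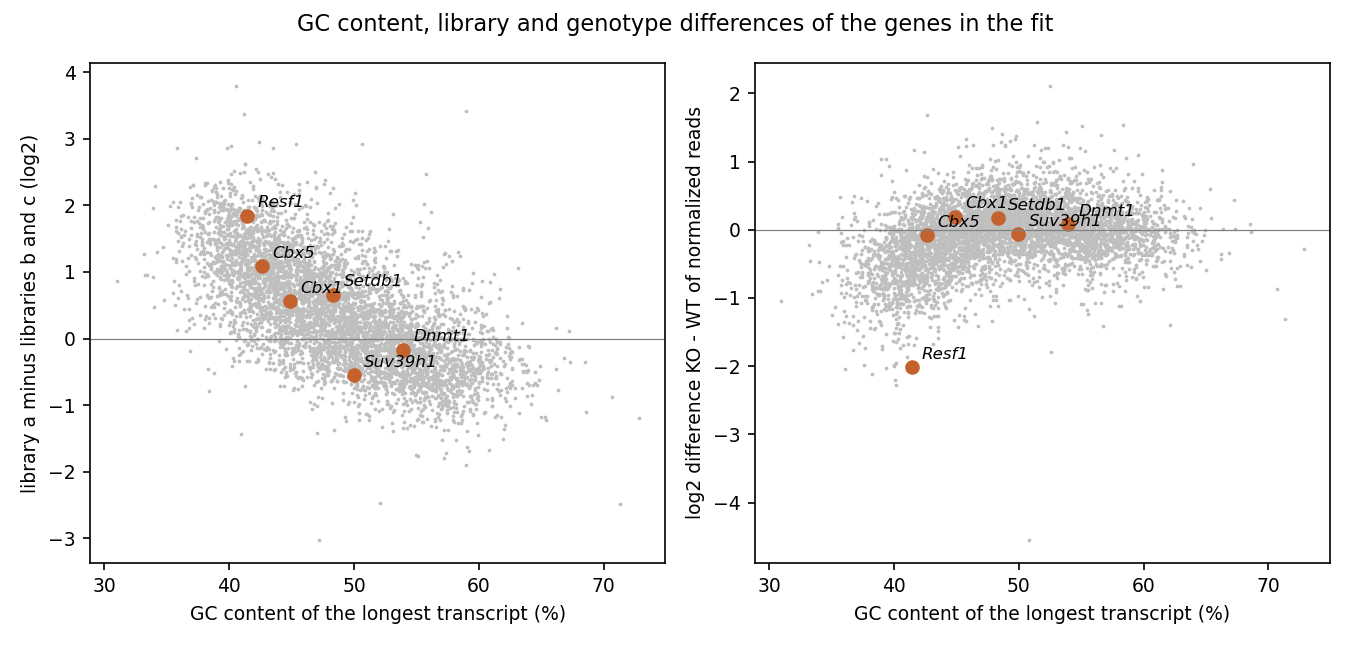
GC content of the longest annotated transcript (%, x axis) against the log2 excess of library a over libraries b and c (left) and the log2 difference of KO from WT (right) for the 5098 genes of the fit with a GC content (grey), with the 6 members of the fit in orange. *Resf1* sits at 41.4% GC with an excess of 1.85 and a difference of −2.01, and the other 5 members lie near 0 on the right.

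The genes most like *Resf1* were sought over all genes in the fit by Pearson's r of log2(normalized reads + 1) over the 6 libraries. These libraries share 2 genotypes and the excess of library a, so the values are a description. The 5 nearest were *Zfp397* (r = 0.99), *Clca3a1* (0.986), *Ssb* (0.982), *Nme7* (0.980) and *Ufl1* (0.980). *Ssb*, which encodes the La protein that binds new RNA polymerase III transcripts, had 304, 104 and 89.3 normalized reads in WT a, b and c and 107, 28.0 and 45.2 in KO a, b and c. *Zfp397*, a zinc finger gene, had 141, 27.3 and 40.4 in WT and 39.6, 4.83 and 10.2 in KO. An r over 0.9 with *Resf1* was reached by 189 of 5282 genes (3.58%). With the mean of each genotype taken off, the 5 nearest were *Tmf1*, *Alcam*, *B230219D22Rik*, *Snx13* and *Rabgap1*, with r from 0.996 to 0.999. By this second measure *Cbx1* had an r of 0.95 with *Resf1* and *Setdb1* one of 0.93, where 659 of 5282 genes (12.5%) were over 0.9. With the genotype means left in, the highest r among the other members in the fit was that of *Cbx5*, 0.51. *Cbx3*, *Atf7ip*, *Trim28* and *Uhrf1* were outside the fit and were not compared.

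**Figure D4:**
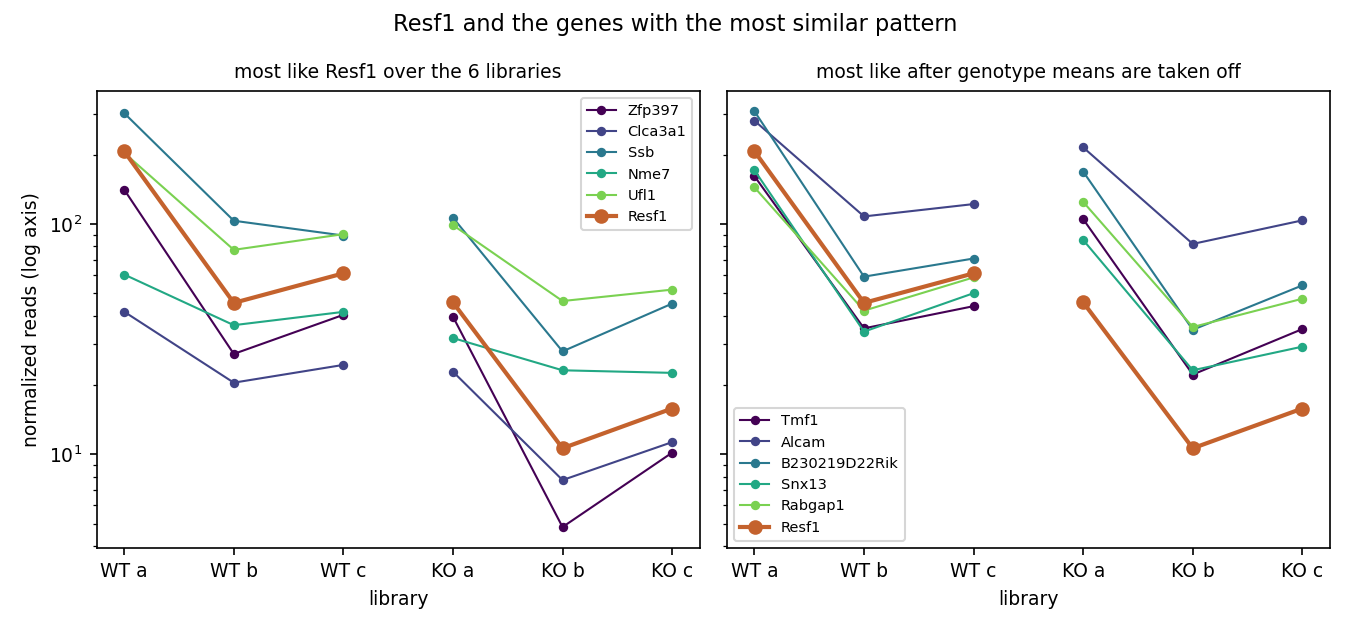
Normalized reads (log axis) of *Resf1* (orange) and of the 5 genes most like it in the 6 libraries, with the genotype means left in (left) and taken off before the comparison (right). Every line is highest in library a of its genotype, and on the right the genes keep closer levels between WT and KO than *Resf1*, which goes from 207 in WT a to 45.7 in KO a.

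The genes beside *Resf1* on chromosome 6 had smaller differences. *Amn1*, 121 kb upstream, had a deposited value of 14.3 in WT and 12.2 in KO. Its libraries held 20.4, 25.0 and 0 normalized reads in WT a, b and c and 16.0, 5.79 and 12.4 in KO a, b and c. Its direction was open, since the fitted log2 difference was 0.49 with a standard error of 1.16. *Etfbkmt*, 158 kb upstream, had 113 in WT and 99.8 in KO, with a fitted log2 difference of −0.06 and a standard error of 0.50. *Bicd1*, 73.2 kb downstream, was nearly silent, at 0.296 in WT and 0.298 in KO, and no second downstream neighbour of the table was matched to the annotation. On the deposited values the log2 differences of *Amn1*, *Etfbkmt* and *Bicd1* were −0.21, −0.18 and 0.0018, and that of *Resf1* was −1.50.

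The wider pathway was read from 7 lists of 76 genes, of which the table held 69. Of the 58 that averaged 10 or more, 13 were under −0.5 and 0 were over 0.5, beside the shares of 7.61% and 2.38% of all such genes. Of 31 list genes in the limma fit, 0 passed an adjusted p of 0.05 and 0 had an unadjusted p under 0.05, where the shares of all genes in the fit were 0.0189% and 1.8%. The 1 gene that passed was *Moap1*, named here for that reason and not a member of any list, with 16, 34 and 18 reads in WT a, b and c and 0 in each KO library.

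The HUSH complex and other SETDB1 partners, which spread and hold H3K9 methylation over retroelements, had a median of −0.48, beside −0.05 for all genes averaging 10 or more, with 4 of 10 genes under −0.5. *Fam208a*, which encodes the HUSH subunit TASOR, had 198, 25.0 and 57.5 normalized reads in WT a, b and c and 56.4, 17.4 and 14.7 in KO a, b and c. The genotypes overlapped, since KO a was above WT b (log2 difference −1.40, standard error 0.79). Without WT a this log2 difference was −0.61, and without WT b it was −2.08. *Mphosph8*, the HUSH subunit that reads H3K9 methylation, had 148, 127 and 33.0 in WT and 63.2, 37.7 and 32.7 in KO, where KO a and KO b exceeded WT c. In all 9 genes of this list in the fit, library a was the highest in both genotypes. The share was 40% of all genes in the fit and 76.9% of the 1275 genes with the lowest GC content. The median GC content of the list was 43.7% beside 49.96% for all genes. The part of library a and base composition in these values was not tested.

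The other H3K9 methyltransferases and their partners had a median of 0.20, with 1 of 8 genes under −0.5. That gene was *Zfp644*, a partner of the G9a and GLP methyltransferases, at 50.9 in WT and 29.4 in KO, and *Ehmt1* (GLP) itself was listed at 171 and 210.4. The demethylases had a median of 0.04, with 2 of 10 genes under −0.5, *Kdm7a* (40.3 in WT, 20.9 in KO) and *Jmjd1c* (97.97 in WT, 68.9 in KO). Among DNA methylation genes the median was −0.01 with 1 of 8 genes under −0.5. That gene was *Tet2*, an eraser of DNA methylation, at 24.7 in WT and 13.5 in KO, and *Tdg*, the glycosylase that completes the removal, was at 185 and 216. *Tet2* had 76.8, 3.41 and 7.34 normalized reads in WT a, b and c and 19.8, 2.90 and 4.52 in KO a, b and c. Its fitted log2 difference was −0.89, and it was 0.33 without WT a and −1.61 without KO a. Leaving out WT a moved *Zfp644* from −0.95 to −0.19, *Jmjd1c* from −0.75 to −0.12 and *Kdm7a* from −1.15 to −0.55. Leaving out KO a moved them the other way, to −1.51, −1.45 and −1.45.

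Corepressors, histone chaperones and SUMO genes had a median of −0.26, with 4 of 12 genes under −0.5. The lowest were *Atrx*, the remodeller that deposits histone H3.3 at heterochromatin with DAXX, at 152 in WT and 79.4 in KO, and the chaperone *Asf1a*, at 44.0 and 27.4. Without WT a, the fitted log2 difference went from −1.02 to −0.42 for *Atrx* and from −0.93 to −0.66 for *Asf1a*. Without KO a it was −1.36 for *Atrx* and −1.38 for *Asf1a*. Genes that restrict or sense retroelements had a median of 0.03 and 1 of 10 genes under −0.5. It was *Ifih1*, the sensor MDA5 of double-stranded RNA, at 157 in WT and 108 in KO, while *Mavs*, the adaptor below it, was at 1827 and 2225. Of the genes of retroviral origin, 3 were listed (*Fv1*, *Peg10* and *Synb*), all averaging under 10. The 13 pathway genes under −0.5 had GC contents from 38.6% to 45.4%. Library a was the highest in both genotypes for 11 of the 12 that were in the fit. The same held for 40% of all genes in the fit and 76.9% of the 1275 genes with the lowest GC content.

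**Figure D5:**
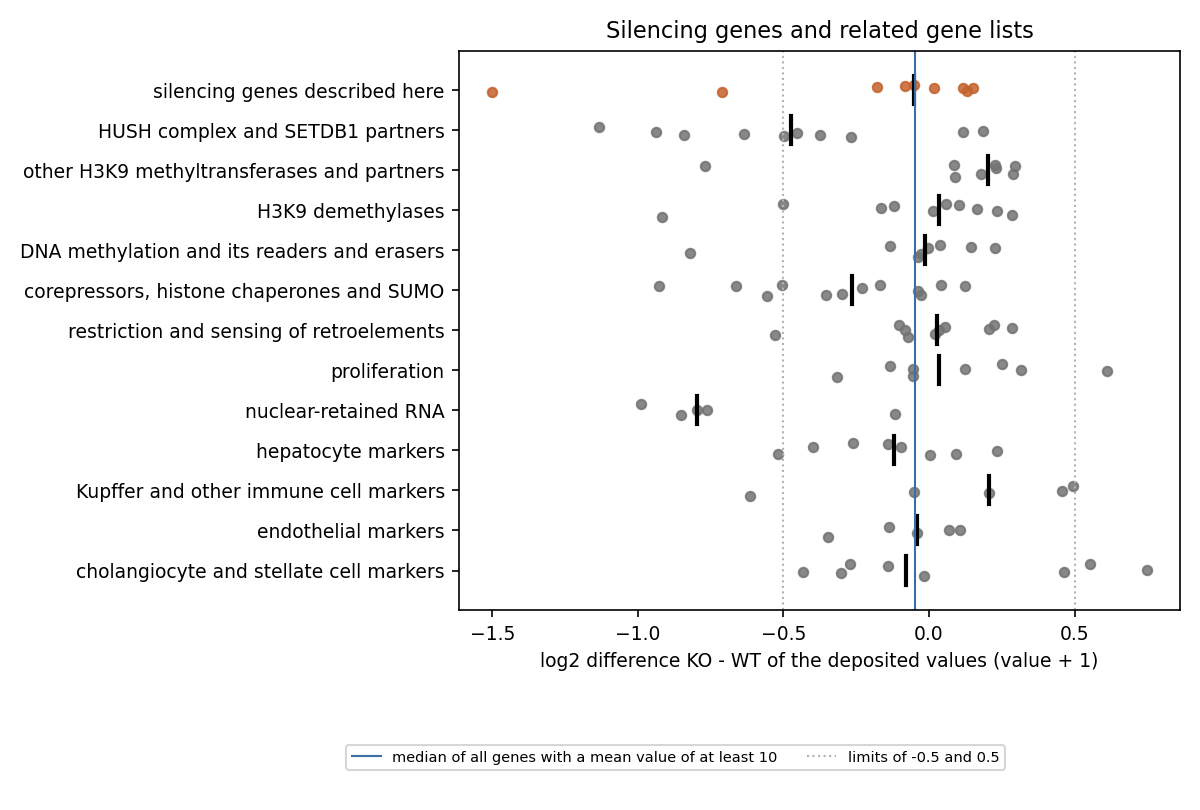
Log2 difference of KO from WT of the deposited values (value + 1) for genes averaging 10 or more, by list, with black ticks for the median of each list and the blue line for the median of all 11367 such genes at −0.05. The HUSH list (median −0.48) and the long noncoding RNAs labelled nuclear-retained (median −0.80) lie to the left, and *Resf1* is the point farthest left at −1.50.

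Markers of the cells of the liver were checked beside these values. Hepatocyte markers defined the tissue, with all 8 listed at 12716.5 or more in WT, and none of the defining markers was at 0. Their median log2 difference was −0.12, with 1 of 8 under −0.5, *Apob*, followed by *Apoa1* at −0.40. The summed Kupffer and other immune markers were 2073 in WT and 2406 in KO, the endothelial markers 1870 and 1810, and the cholangiocyte and stellate markers 522 and 594. Of the 5 immune markers averaging 10 or more, 1 was under −0.5 and 0 were over 0.5, with a median of 0.21. The one under −0.5 was *Ptprc*, the marker of all leukocytes, at 22.2 in WT and 14.1 in KO. *Adgre1*, the F4/80 antigen of macrophages, was at 79.2 and 112, with each KO library above each WT library (log2 difference 0.54, standard error 0.31). In 5.49% of the genes in the fit the genotypes separated without overlap in either direction. Of the 8 cholangiocyte and stellate markers 2 were over 0.5, the collagens *Col1a1* and *Col3a1*, while 5 were below 0 and the median was −0.08. The 5 endothelial markers had a median of −0.04, with 0 beyond either limit. Long noncoding RNAs, several but not all of them retained in the nucleus, had a median of −0.80, with 4 of 5 under −0.5. Among these 4 were *Kcnq1ot1* (178 in WT, 89.2 in KO) and *Neat1* (1055 in WT, 584 in KO). The part of these cell types and RNAs in the values of *Resf1* was not tested.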

How the data were processed

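Liver RNA of 6 pools was sequenced, 3 of WT and 3 of KO. The submitters' processing notes name HISAT2, StringTie, Cufflinks, GATK, Bowtie2, RSEM and mm10, without versions or roles. The authors deposited 1 expression signal per genotype for 16123 genes, with gene model lengths, on the scale of reads divided by size factors. The columns of the authors' own comparison (ratios, p-values) and the splicing counts were not used. For *Resf1* and *Txndc5*, however, the ratio of the deposited values equals, after rounding, the ratio printed in the paper. Differences of the deposited values are therefore not independent of the authors' comparison. Reads, ribosomal and mapping percent values were deposited per library.

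Averaging the 2 values of a gene gives the mean of its whole reads, each divided by a size factor, in the 6 libraries. Values shared by at least 20 genes with 1 read gave the worth of a read in each library, and the direction of those genes its genotype. Sets of whole reads were enumerated within 1.5 times the rounding. Under a sum of 400, 8062 of 8081 genes had a single set. From 400 to 1150, 454 of 2675 had a single set and 1505 a set with a probability of at least 0.99, judged from 1415 genes of known reads. On 626 known genes with a widened tolerance, 557, 329 and 219 were accepted at a median of 11, 103 and 208 sets, all right. These 626 genes were among the 1415 and had sums under 400. The check is therefore not independent and does not cover the sums from 400 to 1150. Of the sets with a probability of 0.95 to 0.99, 45 of 45, 146 of 147 and 183 of 184 were right. The direction of the reads matched the deposited one in 1128 of 1128 genes with a single set and a log2 ratio beyond 0.5.

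Genes with a sum of at least 60 normalized reads entered limma 3.58.1 (R 4.3.3) on log2(normalized reads + 1), with Benjamini-Hochberg adjustment. edgeR was not run, since the deposited values are not counts and reads were recovered for part of the genes only. Scripts were tested on simulated data. Few recovered reads mean a large counting error. GC contents came from GENCODE M21 on GRCm38 for 94.7% of genes. The members and lists were chosen with earlier results of these data known. Named are all members, per list the count and at most the 2 genes of largest difference, the 5 genes most like *Resf1* by each of 2 measures, the neighbours of *Resf1*, and *Txndc5*. Pseudocounts, limits on the sum, centring, a term for library a and left-out libraries were tried as alternatives.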

Additional observations from a re-analysis of the deposited data

How the results depend on the processing

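The log2 difference of *Resf1* was −2.01 and kept its direction in all alternatives run. Because *Resf1* was selected on its ratio in these same libraries, this describes the processing and is no support for the difference. The log2 difference ranged from −2.60 (without KO a) to −1.36 (without WT a) when each library was left out in turn. It was −2.05 with a pseudocount of 0.5 and −1.91 with each library centred on its median. The 5 other members in the fit moved by less than 1 SD between replicates in all 45 alternatives. The term for library a is balanced between the genotypes and cannot move a difference, so it is no check of these values. On the most probable reads, an alternative chosen after seeing the data, the log2 difference was −0.83 for *Cbx3* and 0.17 for *Atf7ip*.

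The count of genes called by limma was 1 in the reported fit and 0 with a sum of at least 30 or with no minimum, where more genes were tested. It ranged from 0 to 1 when each library was left out. Genes with an unadjusted p under 0.05 numbered 36 higher and 59 lower in KO, and 83 and 358 with a term for library a. The restriction to sums up to 400 or to genes with a single set, both chosen after seeing the data, left 1 gene called. Centring on the median moved the median of all genes in the fit from −0.05 to 0.06. Members under −0.5 in the deposited values numbered 2 with a pseudocount of 1, a pseudocount of 0.1 and centring alike. No paired analysis was possible because the genotypes share 1 pool number and the recovered libraries carry none. *Trim28* has no spread between libraries, and 7 reads of *Uhrf1* limit any comparison of it.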
